A study of Mus musculus with 7 samples.

Results

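The EGF receptor family and its ligands were followed on 7 Affymetrix mouse arrays by listing 9 genes: the receptors Egfr, Erbb2 and Erbb3 and the ligands Areg, Ereg, Hbegf, Tgfa, Btc and Epgn. Of these, 8 genes were matched to probe sets that carry exactly 1 gene symbol, with 19 such probe sets out of 34945 on the array and 8 genes out of 18193. Areg was matched to none and is not analysed here. Each gene is described by its brightest probe set, judged by the mean of the 7 arrays, and its other probe sets are given after it or further on. The RNA came from sorted cells positive for Cd34 and Epcam, taken from mouse skin tumours raised with the carcinogen DMBA and the tumour promoter TPA. Carcinomas, the malignant tumours, gave 4 arrays (numbered 1, 2, 3 and 1 labelled GFP), and papillomas, the benign tumours, gave 3 (numbered 1, 2 and 1 labelled GFP). The labels do not explain the tag, and they give no strain, age, sex or genotype. They put the gene name Nr2f2 before the tumour type of every array, without saying whether that gene had been altered. Nothing in them ties arrays to animals, and a p-value here covers only the spread among these samples, which may be technical.

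Receptors of this family sit in the cell membrane, pair up when a ligand binds outside, and switch on kinase activity inside the cell that feeds the Ras and MAP kinase cascade, the PI3 kinase pathway and STAT factors. Erbb2 has no known ligand of its own and acts as a partner, and Erbb3 has little kinase activity and relies on its partners. The ligands are made as membrane-anchored precursors and are released by ADAM proteases, and in the epidermis they drive keratinocyte growth, wound closure and hair follicle cycling. In mouse skin, Tgfa and Egfr are classical players in tumour growth after DMBA and TPA.

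Epgn, Ereg, Areg and Btc are consecutive protein-coding genes on chromosome 5 in RefSeq's table of assembly GRCm38.p6. The entries used from RefSeq's promoter table of that assembly, with 1 chromosome left out, covered 6 of the 9 listed genes. The promoters of Epgn, Erbb2 and Tgfa are shown because these genes were lower together in the GFP-labelled arrays, as described below, and are among those covered. Each line gives the 250 bases before the annotated start, all on the plus strand of GRCm38.p6: chr5:91027267-91027516 for Epgn, chr11:98412234-98412483 for Erbb2 and chr6:86194972-86195221 for Tgfa. Capitals mark matches on either strand to the AP-1 motif TGANTCA, the cyclic AMP response element TGACGTCA, the GC box GGGCGG or the TATA box TATAAA, of which no 2 overlapped in these sequences.
Epgn: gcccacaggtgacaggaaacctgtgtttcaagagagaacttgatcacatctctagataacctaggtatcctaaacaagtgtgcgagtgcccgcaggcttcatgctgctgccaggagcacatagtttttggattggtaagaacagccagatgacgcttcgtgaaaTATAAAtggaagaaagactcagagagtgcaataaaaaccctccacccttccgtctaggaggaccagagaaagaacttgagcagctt
Erbb2: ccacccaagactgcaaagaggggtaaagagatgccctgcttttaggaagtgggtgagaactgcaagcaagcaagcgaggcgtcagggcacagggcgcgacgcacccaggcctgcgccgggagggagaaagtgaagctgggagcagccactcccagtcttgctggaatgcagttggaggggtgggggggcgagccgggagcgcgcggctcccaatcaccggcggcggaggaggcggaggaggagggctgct
Tgfa: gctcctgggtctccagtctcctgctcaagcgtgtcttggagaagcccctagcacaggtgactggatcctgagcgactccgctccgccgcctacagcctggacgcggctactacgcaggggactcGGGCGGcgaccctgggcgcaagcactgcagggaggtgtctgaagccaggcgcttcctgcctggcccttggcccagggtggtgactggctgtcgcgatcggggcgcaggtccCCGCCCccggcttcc
Epgn held 1 match to the TATA box, which starts 86 bases before the annotated start. Tgfa held 2 matches to the GC box, and Erbb2 held none of the 4 motifs in this window. Among 32817 mouse promoter windows of the same length, 12.4% held the TATA box, 32.7% the GC box, 6.8% the AP-1 motif and 1.5% the cyclic AMP response element. A match of letters is a description of the sequence, and binding was not measured here.

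All values are log2 levels, on which a difference of 1 is a factor of 2. Array medians lay between 5.38 and 5.51, and precision is limited by the number of arrays. The arrays fell into separate clusters by the GFP tag: the first principal component held 63.8% of the variance, with the tagged arrays at 96.3 and 107.1 and the 5 others between -48.3 and -35.5. For Gapdh, the 3' control probe sets minus the 5' ones, which grows with shortened labelled RNA, gave 3.19 in both tagged arrays and between -0.04 and 0.06 in the others. Epcam was measured at 8.28 and 9.59 in the tagged arrays and at 10.52 to 11.97 in the others, and Cd34 at 11.66 and 11.73 against 8.76 to 10.80. The tumour type comparison is therefore given with and without the tagged arrays.

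Neither receptors nor ligands were called different between carcinoma and papilloma cells. Carcinoma means were higher for 7 of the 8 genes and lower for Btc, whereas 46.9% of all genes had a higher carcinoma mean. The median difference was 0.14, against -0.02 over all 18193 genes. None of the 8 genes had a limma adjusted p under 0.05, nor an unadjusted p under 0.05, and the same fit called 0% of all genes after adjustment and 0.616% without it. For each of the 8 genes the levels of carcinoma and papilloma arrays overlapped, whereas 1.42% of all genes had levels that did not. The tag falls on 1 of 4 carcinoma and 1 of 3 papilloma arrays, so it weighs more on the papilloma means. With the tag as a covariate, Egfr, Erbb2, Hbegf and Epgn differed by 0.055, 0, 0.033 and -0.13. Erbb3, Ereg, Tgfa and Btc differed by 0.202, 0.499, 0.42 and -0.065 in that fit. Without the tagged arrays, carcinoma means were lower for Egfr (-0.511) and Btc (-0.154) and higher for the others.

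**Figure D1:**
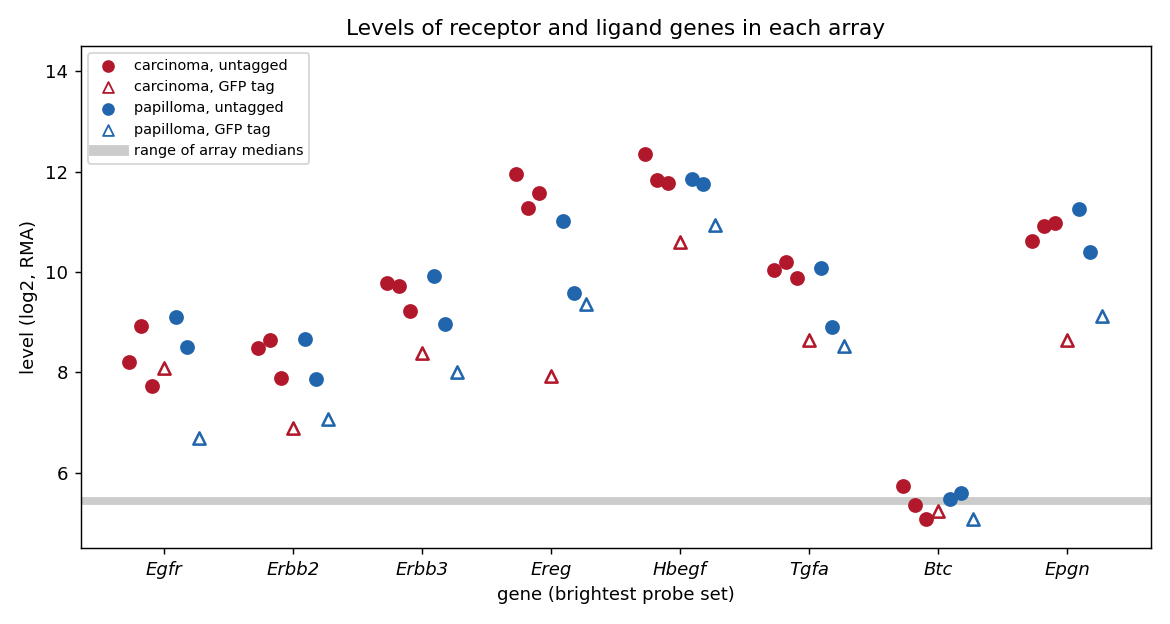
Level on the log2 scale (vertical axis) of the brightest probe set of each gene (horizontal axis), 1 symbol per array: red for carcinoma, blue for papilloma, open triangles for arrays with the GFP tag, and a grey band for the range of array medians. The tagged arrays are the lowest of all for Erbb2, Erbb3, Ereg, Hbegf, Tgfa and Epgn, and Btc lies around the band.

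Among the receptors, Egfr, which binds the ligands analysed here, was measured at 8.21, 8.92, 7.74 and 8.10 in carcinoma 1, 2, 3 and GFP, and at 9.10, 8.50 and 6.69 in papilloma 1, 2 and GFP. The papilloma arrays held both the highest and the lowest Egfr level of the series. Carcinoma arrays averaged 8.24 ± 0.49 (SD, n = 4) and papilloma arrays 8.09 ± 1.26 (SD, n = 3), which differ by 0.15 (SE 0.59, limma adjusted p = 1). The sign of this difference rested on single arrays. Without papilloma GFP it was -0.56, without carcinoma 2 it was -0.08, and without both tagged arrays it was -0.51 (SE 0.40). The other 6 probe sets of Egfr gave tumour type differences from -0.24 on 1432647_at to 0.33 on 1424932_at.

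Erbb2, the partner receptor, was measured at 8.49, 8.65, 7.89 and 6.89 in carcinoma 1, 2, 3 and GFP, and at 8.67, 7.86 and 7.08 in papilloma 1, 2 and GFP. Untagged arrays of both tumour types covered almost the same range, and the 2 lowest levels were those of the tagged arrays. The tumour types differed by 0.11 (SE 0.53, limma adjusted p = 1), and by 0.08 (SE 0.36) without the tagged arrays. Erbb3, which signals through its partners, was measured at 9.79, 9.71, 9.22 and 8.38 in carcinoma 1, 2, 3 and GFP, and at 9.93, 8.96 and 8.02 in papilloma 1, 2 and GFP. Its arrays followed nearly the same order, with papilloma 1 highest and the tagged arrays lowest. The Erbb3 difference was 0.31 (SE 0.53, limma adjusted p = 1), and 0.13 (SE 0.36) without the tagged arrays. Its other probe set, 1452482_at, gave -0.05 (SE 0.31). Leaving out papilloma GFP turned the sign of both receptors, to -0.29 for Erbb2 and -0.16 for Erbb3, and without carcinoma 1 or carcinoma 2 the Erbb2 difference was -0.06 or -0.11.

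Among the ligands, Ereg, which encodes epiregulin and binds Egfr and Erbb4, had the largest difference between the tumour types. It was measured at 11.96, 11.28, 11.56 and 7.94 in carcinoma 1, 2, 3 and GFP, and at 11.01, 9.58 and 9.36 in papilloma 1, 2 and GFP. The 3 untagged carcinoma arrays were the 3 highest, and carcinoma GFP was the lowest of all 7. Carcinoma arrays averaged 10.68 ± 1.85 (SD, n = 4) and papilloma arrays 9.99 ± 0.90 (SD, n = 3), which differ by 0.70 (SE 1.01, limma adjusted p = 1). Without the tagged arrays the Ereg difference was 1.30 (SE 0.47), and without carcinoma GFP alone it was 1.61, and none of these fits called a gene.

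Tgfa, a high-affinity ligand of Egfr, was measured at 10.04, 10.19, 9.88 and 8.65 in carcinoma 1, 2, 3 and GFP, and at 10.09, 8.91 and 8.52 in papilloma 1, 2 and GFP. Papilloma 2 stood below the 4 other untagged arrays, which lay within 9.88 to 10.19. The tumour types differed by 0.52 (SE 0.51, limma adjusted p = 1), and by 0.54 (SE 0.38) without the tagged arrays. On the other probe sets of Tgfa the difference was -0.04 on 1421942_s_at and 0.21 on 1450421_at.

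Hbegf, a heparin-binding ligand of Egfr and Erbb4, was measured at 12.36, 11.83, 11.76 and 10.60 in carcinoma 1, 2, 3 and GFP, and at 11.84, 11.75 and 10.94 in papilloma 1, 2 and GFP. Carcinoma 1 was highest, and the other 4 untagged arrays lay within 11.75 to 11.84. Its tumour type difference was 0.13 (SE 0.44, limma adjusted p = 1), and 0.187 (SE 0.255) without the tagged arrays. It was -0.11 without carcinoma 1 and -0.16 without papilloma GFP. Its other probe set, 1418349_at, gave 0.34 (SE 0.53). Epgn, which encodes epigen, an Egfr ligand of low affinity, was measured at 10.61, 10.92, 10.97 and 8.65 in carcinoma 1, 2, 3 and GFP, and at 11.25, 10.39 and 9.13 in papilloma 1, 2 and GFP. Untagged carcinoma arrays lay between the 2 untagged papilloma arrays. The difference was 0.03 (SE 0.72, limma adjusted p = 1), and 0.018 (SE 0.313) without the tagged arrays. It was -0.13 (SE 0.25) with the tag as a covariate and -0.19 (SE 0.29) with the replicate block.

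Btc, which encodes betacellulin, a ligand of Egfr and Erbb4, was dim. Its brightest probe set lay between 5.08 and 5.74 over all 7 arrays, around the array medians, and the other, 1421161_at, between 3.31 and 4.04. The tumour types differed by -0.04 (SE 0.22, limma adjusted p = 1) on the first and by 0.10 (SE 0.21) on the second. Without the tagged arrays the first gave -0.154 (SE 0.258), and with the replicate block 0.05 (SE 0.20).

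**Figure D2:**
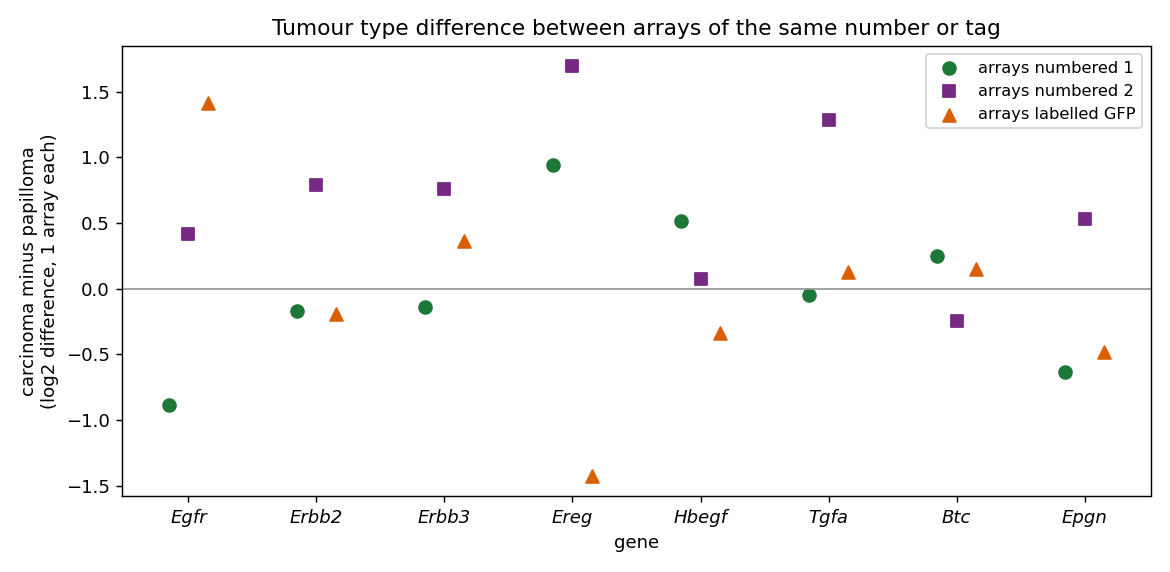
Carcinoma minus papilloma difference (vertical axis, log2) of each gene (horizontal axis) between arrays that share number 1 (circles), number 2 (squares) or the tag GFP (triangles), with 1 array on each side. Ereg lies at 0.94, 1.69 and -1.43 and Egfr at -0.89, 0.42 and 1.41.

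For all 8 genes the 3 differences between arrays that share a number or the tag were not of one sign. The share of all genes for which this holds is not given here, so the count only describes these genes. For Ereg the carcinoma array was higher by 0.94 and 1.69 among the arrays numbered 1 and 2, and the difference was -1.43 in the tagged arrays. For Egfr these differences were -0.89, 0.42 and 1.41. The dependence of the tumour type difference on the tag was tested as an interaction over all genes. It was -2.73 (SE 0.86, limma unadjusted p = 0.0204, adjusted p = 1) for Ereg and 1.92 (SE 0.74, limma unadjusted p = 0.0427, adjusted p = 1) for Egfr. These were the 2 of 8 genes with an unadjusted p under 0.05, against 2.14% of all genes, and 0% of all genes passed after adjustment. The tagged arm of this test holds 1 array of each tumour type, so it borrows its spread from the untagged arrays.

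By the GFP tag, 6 of the 8 genes were lower in the tagged arrays: Erbb2, Erbb3, Ereg, Hbegf, Tgfa and Epgn passed the threshold in a limma fit with the tumour type as a covariate. In the same fit 7.93% of all genes were lower and 11.9% higher. The levels of tagged and untagged arrays did not overlap for the same 6 genes, with the tagged arrays below, as for 19.9% of all genes. Egfr and Btc also had lower tagged means but did not pass. The median difference of the 8 genes was -1.25, against -0.05 over all genes, and all 8 signs stayed the same after a further quantile normalization. Of the genes called by tag, 60.0% were higher in the tagged arrays as deposited and 48.6% after that normalization. In these bulk samples fewer cells of a type and less RNA per cell cannot be told apart.

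**Figure D3:**
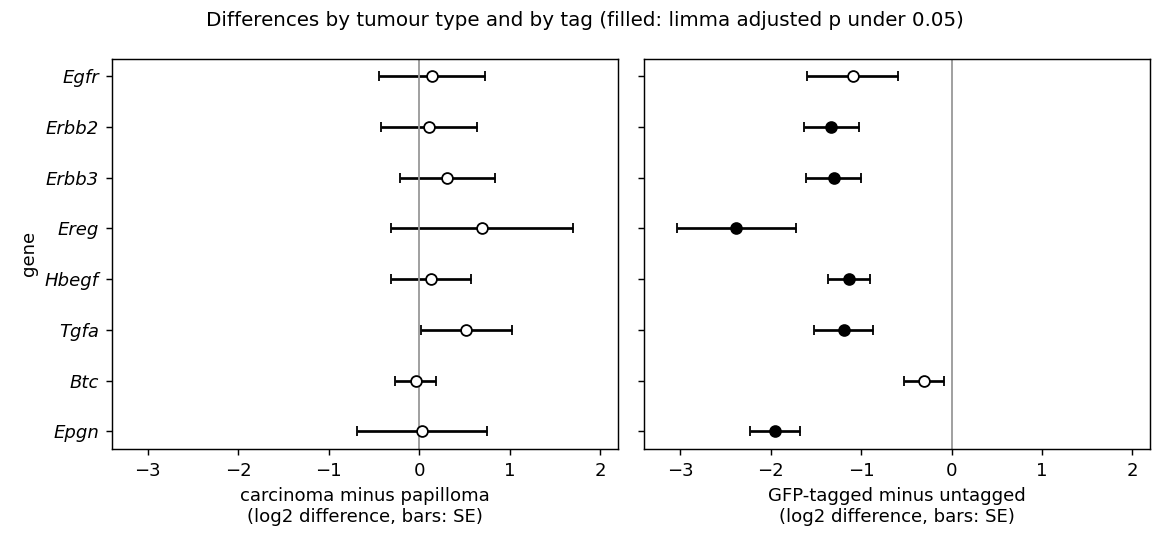
Differences on the log2 scale (horizontal axes) with standard errors as bars for each gene (vertical axis), between carcinoma and papilloma arrays on the left and between tagged and untagged arrays on the right. No symbol is filled on the left, and 6 are filled on the right, between -2.38 for Ereg and -1.14 for Hbegf.

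Epgn had the lowest p-value of the family in this comparison. It averaged 8.89 in the 2 tagged and 10.83 ± 0.33 (SD, n = 5) in the untagged arrays, and the fitted difference was -1.95 (SE 0.28, limma adjusted p = 0.00417). Ereg averaged 8.65 and 11.08 ± 0.91 (SD, n = 5), and its fitted difference was the largest of the 8, -2.38 (SE 0.65, limma adjusted p = 0.0462). Papilloma 2, at 9.58, was only slightly above papilloma GFP, at 9.36. Hbegf differed by -1.14 (SE 0.23, limma adjusted p = 0.0169) and Tgfa by -1.19 (SE 0.32, limma adjusted p = 0.0447).

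The partner receptors Erbb2 and Erbb3 differed by nearly the same amount, -1.33 (SE 0.30, limma adjusted p = 0.0245) and -1.30 (SE 0.30, limma adjusted p = 0.0268). Egfr differed by -1.09 (SE 0.50, limma adjusted p = 0.189), since carcinoma GFP, at 8.10, lay within the untagged range of 7.74 to 9.10 and papilloma GFP, at 6.69, below it. Btc differed by -0.30 (SE 0.22, limma adjusted p = 0.407).

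Most of these calls depended on which arrays were present. Without carcinoma GFP, none of the 8 genes passed (limma adjusted p from 0.0950 to 0.569), and 861 of all genes passed in place of 3601. Without papilloma GFP, Ereg and Epgn passed and 1462 of all genes did. In both fits 1 tagged array was left and was assumed to vary like the others. Hbegf and Epgn passed without carcinoma 1 and without carcinoma 2, and these genes with Erbb2 and Erbb3 passed without carcinoma 3 and without papilloma 1. Without papilloma 2 the same 6 genes passed as with all arrays. The Ereg difference was -0.93 without carcinoma GFP and -3.66 without papilloma GFP.

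Markers of other cells moved with the tag as well, where 11.9% of all genes were called higher and 7.93% lower. All 15 endothelial markers were higher in the tagged arrays by the same test, with a median difference of 5.29, and 12 of 14 fibroblast markers, with a median of 4.13. The summed level of the endothelial list lay at 14.995 to 15.052 in the tagged and at 9.58 to 10.22 in the untagged arrays, and that of the fibroblast list at 15.23 to 16.22 and 10.17 to 12.90 (log2 of the sum). Of the myeloid and lymphoid markers 7 of 15 were higher and 0 lower, with a summed level of 11.57 to 11.76 against 9.74 to 10.74. Of the melanocyte and nerve markers 2 of 6 were higher, with a summed level of 9.03 to 9.22 against 8.15 to 9.24.

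Most keratinocyte markers moved in the direction of the family. Of 15 measured, 9 were lower and 0 higher in the tagged arrays, with a median difference of -1.30, and their summed level lay at 15.55 to 15.70 against 16.12 to 16.60. Cdh1, the epithelial cadherin, differed by -2.34 and Trp63, a transcription factor of basal keratinocytes, by -1.34, and both passed. Of the basal keratins, Krt14 and Krt15 were lower, at -0.98 and -1.70, and Krt5 differed by -0.40 without passing. Of the wound keratins, Krt17 was lower, at -2.29, and Krt16, Krt6a and Krt6b differed by -1.30, -0.10 and 0.92 without passing. The other listed keratins, Krt1 and Krt10, differed by 0.49 and -0.06 without passing. The part of cell makeup and of RNA quality in the differences of the family was not tested.

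The other probe sets of the family repeated the direction of the tag difference. All 19 had lower means in the tagged arrays, whereas the fitted tag difference was above 0 for 45.3% of all genes. Probe sets of the same gene are not independent. When every probe set was tested on its own, 8 of the 19 passed, where 16% of all single-symbol probe sets passed in either direction. Both probe sets of Hbegf passed, at -1.14 (SE 0.23) and, on 1418349_at, -1.39 (SE 0.24, limma adjusted p = 0.0102). Of Tgfa, 1421942_s_at and 1450421_at passed at -1.28 (SE 0.20) and -0.83 (SE 0.15), while the brightest one, 1421943_at, missed the threshold here (limma adjusted p = 0.0542), and so did the only probe set of Ereg (limma adjusted p = 0.0570).

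Egfr was the gene whose probe sets disagreed most in size. Its 7 probe sets differed by tag from -1.09 on the brightest, 1435888_at, to -0.08 on the dimmest, 1457563_at, and 1451530_at was the only one that passed. On 1451530_at the tagged arrays had 4.93 and 4.86 and the others 5.42 to 6.19, a difference of -0.90 (SE 0.22, limma adjusted p = 0.0389). On 1460420_a_at the tagged arrays, at 6.86 and 6.60, were also the lowest of all (difference -0.81, SE 0.22, limma adjusted p = 0.0560). On 1424932_at carcinoma GFP, at 7.88, again lay within the untagged range of 7.47 to 8.63, and papilloma GFP, at 7.10, below it. Over the 7 arrays, the other probe sets of Egfr correlated with the brightest at -0.21 (1457563_at) to 0.851 (1424932_at), with 1432647_at at -0.202. Averaging the 7 probe sets, unlike as they were, gave an Egfr difference of -0.55 (SE 0.15, limma adjusted p = 0.0496). Erbb3 had a second probe set, 1452482_at, at 4.51 to 5.59, with a difference of -0.55 (SE 0.27, limma adjusted p = 0.235). It correlated with the brightest one of Erbb3 at 0.253.

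**Figure D4:**
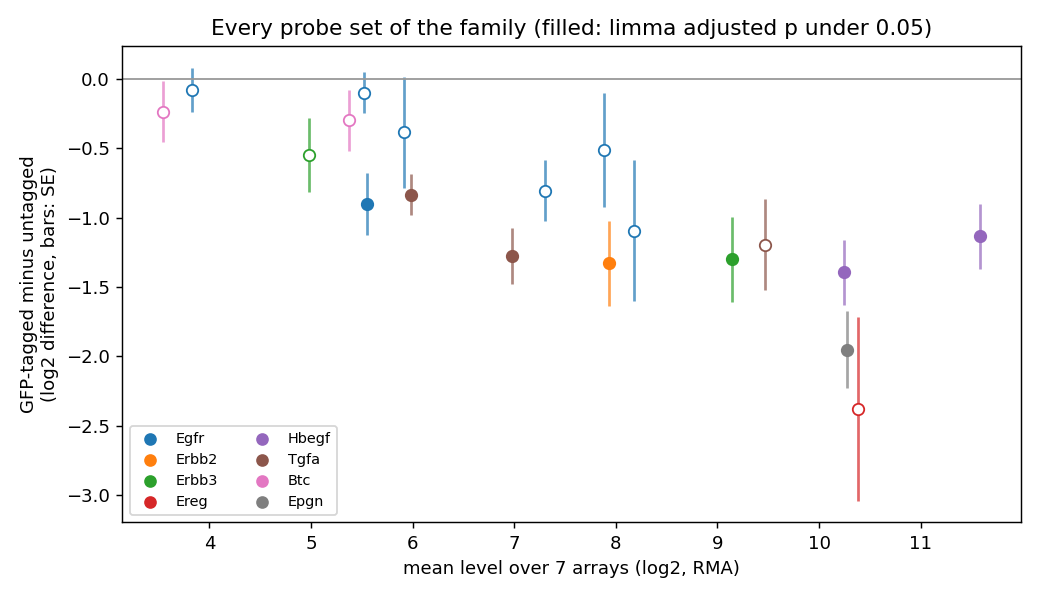
Tagged minus untagged difference (vertical axis, log2, bars for SE) of all 19 probe sets against their mean level over the 7 arrays (horizontal axis, log2), coloured by gene. All symbols lie below 0, from -0.08 to -2.38, and the 8 filled ones passed the test over all probe sets.

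The remaining genes of the family were mostly dim. Erbb4, the fourth receptor, lay between 3.03 and 3.30, Nrg3 between 3.52 and 3.87, Nrg4 between 4.57 and 5.60, and Egf, which encodes the founding ligand, between 4.61 and 5.50. Nrg1, which encodes a neuregulin that binds Erbb3 and Erbb4, was measured at 7.94, 7.90, 6.47 and 6.14 in carcinoma 1, 2, 3 and GFP, and at 7.75, 6.95 and 4.72 in papilloma 1, 2 and GFP. It was lower in the tagged arrays by the test (-1.92, SE 0.52, limma adjusted p = 0.0434) and was the only one of these 6 genes that passed. Between the tumour types 0 of 6 passed, with Nrg1 at 0.64 (SE 0.81), Egf at 0.09 (SE 0.26) and Nrg2 at 0.06 (SE 0.19).

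The list of ligand release holds proteases, their adaptors and the inhibitor Timp3. By the tag, 6 of its 12 genes were higher, 1 was lower and 5 were not called, with a median difference of 0.96. Over all genes the shares were 11.9% higher and 7.93% lower. Adam12 and Adam19, metalloproteases of this group, were higher by 3.28 (SE 0.71) and 3.09 (SE 0.34), and Timp3, which inhibits such proteases, by 2.61 (SE 0.72). Adam10, a main sheddase, was higher by 1.004 (SE 0.16), and Adam17, the protease that releases Tgfa, Hbegf, Ereg and Epgn, differed by 0.92 (SE 0.26, limma adjusted p = 0.0512). Adam17 was measured at 10.04 and 9.80 in carcinoma and papilloma GFP and at 8.58 to 9.39 in the others, without overlap. Rhbdf2, an adaptor that brings Adam17 to the cell surface, was the lower one, at -1.34 (SE 0.18, limma adjusted p = 0.00372). Between the tumour types 0 of 12 passed, with Timp3 at -1.06 (SE 1.11), Adam12 at 0.49 (SE 1.30) and Rhbdl2, an intramembrane protease, at 0.35 (SE 0.26).

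Receptor inhibitors and genes of receptor turnover had 2 of 18 higher and 2 lower by the tag, near the shares of all genes (11.9% higher and 7.93% lower), and a median of 0.14. The members with the largest tag differences were Lrig2 and Cblc. Lrig2, of a family of membrane proteins that includes receptor inhibitors, was higher by 1.28 (SE 0.24), and Cblc, an epithelial ubiquitin ligase of receptor turnover, was lower, at -1.32 (SE 0.18). Of the adaptors and effectors 5 of 27 were higher and 2 lower, with a median of 0.16. Gab2, a docking protein, had the largest difference, 4.31 (SE 0.15), from 5.01 to 5.13 in the untagged arrays to 9.44 in carcinoma and 9.27 in papilloma GFP. Plcg1, a phospholipase that docks on active receptors, was higher by 2.07 (SE 0.27).

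Between the tumour types 0 of 18 and 0 of 27 of these genes passed. Sh3kbp1, an adaptor of receptor uptake, differed by 0.57 (SE 0.44), Socs3, a cytokine signalling inhibitor, by -0.51 (SE 0.33) and Lrig3 by 0.41 (SE 0.50). Eps8, a substrate of the Egfr kinase, differed by 1.26 (SE 0.84), the kinase Src by 0.55 (SE 0.29) and the exchange factor Vav2 by 0.53 (SE 0.44).

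**Figure D5:**
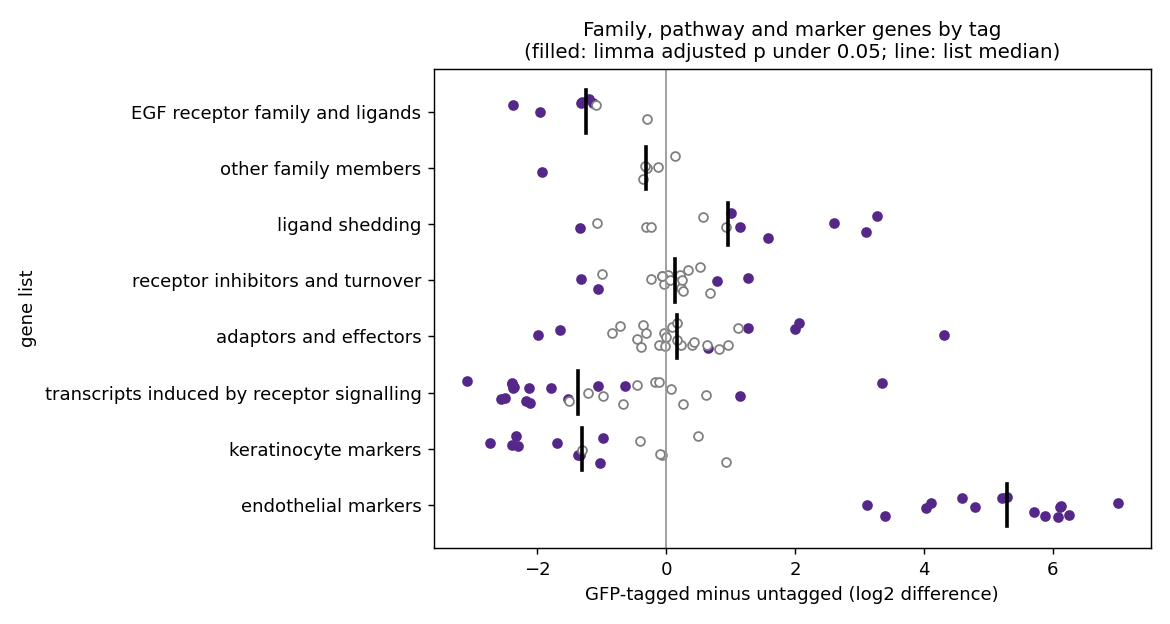
Tagged minus untagged difference (horizontal axis, log2) of every measured gene in 8 lists (vertical axis), filled where the limma adjusted p was under 0.05, with the list median as a line. Medians lie at -1.25 for the family, -1.37 for transcripts induced by receptor signalling, -1.30 for keratinocyte markers and 5.29 for endothelial markers.

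Transcripts that receptor signalling induces were mostly lower in the tagged arrays, with a median difference of -1.37. By the test, 14 of 26 were lower, 2 higher and 10 not called, where 7.93% of all genes were lower and 11.9% higher. Ptgs2, the inducible cyclooxygenase, was measured at 8.44 and 8.83 in carcinoma and papilloma GFP and at 11.23 to 12.40 in the others, a difference of -3.10 (SE 0.30, limma adjusted p = 0.000944). Dusp6, a phosphatase that restrains ERK, was measured at 9.97 and 9.93 against 11.85 to 12.85, a difference of -2.39 (SE 0.27, limma adjusted p = 0.00172). Spry4, a feedback inhibitor of receptor signalling, went the other way, from 4.62 to 5.41 in the untagged arrays to 8.26 and 8.59, a difference of 3.34 (SE 0.32). The immediate early genes were divided: Egr3, Ier3, Myc and Junb were lower, at -2.36, -2.37, -1.52 and -0.64, whereas Fos, Egr1, Egr2 and Ier2 differed by -0.17, -0.12, 0.27 and -0.46 and did not pass.

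Between the tumour types 0 of the 26 transcripts passed, and the median difference was 0.14. The largest differences were those of Dusp4, a nuclear MAP kinase phosphatase, at 1.26 (SE 0.86), Egr2, a zinc finger factor, at -1.22 (SE 0.74) and Vegfa, the vascular growth factor, at 0.82 (SE 0.74). Dusp4 was measured at 9.52, 8.54, 8.23 and 7.35 in carcinoma 1, 2, 3 and GFP, and at 9.06, 5.57 and 6.82 in papilloma 1, 2 and GFP. Papilloma 2, which was also the lowest untagged array for Ereg, Tgfa, Hbegf, Epgn, Erbb2 and Erbb3, was lowest for Dusp4. The upper quartile of that array, 7.32, was the lowest of the 7, and its part in these levels was not tested.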

How the data were processed

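Per the labels' protocols, RNA of sorted cells was extracted with a micro kit, amplified, labelled with biotin and hybridised to a Mouse Genome 430 strip array. The deposited values are log2 levels that the authors normalized with RMA, which corrects background, equalises array distributions and summarises probe sets; RMA and affy are named in the submitters' processing notes, with versions and chip definition not given in the sources used. The log2 scale was read from the values (2.72 to 14.51). Gene names came from the platform annotation of 2016, updated by gene identifier through RefSeq's table of GRCm38.p6 (34741 of 34945 single-symbol probe sets matched). That annotation is of the standard array design, so names rest on shared probe set identifiers. The 64 control probe sets were dropped, and dim probe sets were kept.

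Carcinoma was compared with papilloma without covariates, tagged with untagged arrays with the tumour type as a covariate, and their interaction was tested, by limma 3.58.1 (lmFit, eBayes) in R 4.3.3 over 18193 genes with Benjamini-Hochberg adjustment at 0.05. The procedure was tested on simulated data. Alternatives were a replicate block, the tag as a covariate, no tagged arrays, no tumour type covariate, averaged probe sets, only genes with a mean above that of the median gene, quantile normalization, array weights, a trended robust eBayes and each array left out. Testing every probe set was added after the data were seen. Members and lists were chosen with earlier results of these data known. The rule named all members, the 3 genes per pathway list with the largest tumour type difference, the 2 with the largest tag difference, and the 2 genes most like each member. Erbb4, Nrg3, Nrg4, Adam10, Adam17, Rhbdf2, Dusp6, Fos, Egr1, Egr3, Ier2, Ier3, Myc, Junb, Cdh1, Trp63 and the keratins lie outside it, chosen after seeing their values. Listed genes without a matched probe set are not analysed here. Plots used matplotlib 3.10.9 and Python 3.11.15.

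Carcinoma and papilloma share the numbers 1 and 2 and the tag. Within these pairs, deviations from the mean of the group correlated at 0.476, 0.194 and 0.861 across genes, the last for the tagged arrays. All were above 0.1, the bound by which the numbers were treated as pairs in the replicate block. Untagged arrays of different numbers correlated at 0.207 to 0.683, also above that bound. The bound therefore cannot show that shared numbers mark pairs, and the replicate block is only an alternative fit.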

Additional observations from a re-analysis of the deposited data

Results flagged for a closer look

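Of 16 groups checked (8 genes in the 4 carcinoma arrays and in the 5 untagged arrays), 4 held an array far from the others by Dixon's test, where chance flags about 1 group in 20. The groups share arrays and are not independent, so the number flagged cannot be set against that share. The carcinoma group holds 1 tagged array, and the flags of Ereg and Epgn fall on it. Ereg was 7.94 in carcinoma GFP, with the next carcinoma array at 11.28. Epgn was 8.65 in the same array, with the next at 10.61. Among the untagged arrays Hbegf was 12.36 in carcinoma 1, with the next at 11.84. Tgfa was 8.91 in papilloma 2, with the next at 9.88.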

How the results depend on the processing

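Between the tumour types, 0 genes were called by limma under every alternative run, and with all 7 arrays 112 genes had an unadjusted p under 0.05. With the replicate block 0 genes were called and 500 had such a p. The tumour type difference of Ereg and Tgfa kept its sign under all 15 alternatives. Of the probe sets of Tgfa tested on their own, 1421942_s_at gave -0.04 and 1450421_at 0.21. Other signs turned: Egfr gave -0.51 without both tagged arrays, Epgn -0.13 with the tag as a covariate, -0.19 with the replicate block and -0.015 after quantile normalization, and Btc 0.051 with the replicate block, 0.028 with averaged probe sets and 0.009 with array weights. Leaving out 1 array at a time gave -0.56 to 0.65 for Egfr, -0.29 to 0.51 for Erbb2, -0.16 to 0.79 for Erbb3, -0.16 to 0.47 for Hbegf, -0.193 to 0.066 for Btc and -0.53 to 0.58 for Epgn. The cause was not tested.

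By the tag, 3601 genes were called, 6819 with array weights and 861 to 3955 with 1 array left out, and 5591 probe sets when each was tested on its own, among more features. The signs of all 8 genes held under all alternatives run. The Ereg call was lost with averaged probe sets (limma adjusted p = 0.0502), and Egfr passed there. Ereg has only 1 probe set, so its levels and its difference of -2.378 were unchanged by the averaging. With a trended robust eBayes the interaction called 3 genes in place of 0, none of them in the family. The number of arrays limits all these values, and levels near the array medians, as for Btc, carry little signal.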

Other observations

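The genes whose levels ran most like those of each member over the 7 arrays were found among 6338 others with an SD of at least 0.5 (6339 for Btc). The correlations are a description over few arrays, with no test. For the 6 members whose tagged arrays lay below all others, they also carry that split. Erbb3 ran most like Fcmr and Gramd1c (Pearson r = 0.998 for both) and Erbb2 most like Tmem238 and Esrp1, an epithelial splicing regulator (0.994 for both). Ereg ran most like Il17re, a receptor chain for an epithelial interleukin (0.993), and Nadsyn1 (0.984). Epgn ran most like Atf4, a stress response factor (0.992), and Ovol1, a transcription factor of epidermal differentiation (0.989). Hbegf ran most like Cib1 (0.994) and Siah2, a ubiquitin ligase (0.991), and Tgfa most like Klk11, a kallikrein (0.995), and Dlgap5, a mitotic spindle protein (0.994). Egfr ran most like Mrps27, of the mitochondrial ribosome (0.982), and Nuf2, of the kinetochore (0.980), and Btc most like Gstk1 and Sh2d4a (0.970 for both).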
